A study of Homo sapiens with 2 samples.

Results

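The loci described here are those of 9 genes that act with GATA2, or under it, in blood stem and progenitor cells: TAL1, LYL1, LMO2, RUNX1, FLI1, SPI1, ZFPM1, KIT and HHEX. GATA2 peaks of LNCaP cells were assigned to a gene when the peak midpoint lay inside the gene body or within 0.1 Mb of it on hg19, with gene bodies rounded to 0.01 Mb. The windows were set by gene names and positions and by no peak value, although this set of genes was proposed with earlier results of these data known. In all, 30 of the 36797 peaks in the deposited list fell in these 9 windows, which lie on 7 chromosomes and measure 2.53 Mb together. LNCaP is an established androgen-responsive prostate cancer cell line. GATA2-bound chromatin was precipitated from 2 replicate samples of it and sequenced, after the full medium with 10% serum had been replaced for 3 days by medium with 5% charcoal-treated, steroid-depleted serum. Both samples form 1 group at the same treatment and time, with no other genotype, agent or control library among the samples used here. The only data used were 1 list of peaks for the series, with no value per replicate, so no value below has a replicate error, no test between loci could be made, and the read depth behind each peak is unknown.

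GATA2 is a zinc-finger transcription factor that binds the letters GATA, and in blood stem cells it is known to work in complexes on shared enhancers. TAL1 and LYL1 are basic helix-loop-helix proteins that join the GATA factor through the bridging protein LMO2. RUNX1 and FLI1 occupy many of the same enhancers, SPI1 (PU.1) and GATA factors oppose each other in choosing a blood lineage, and ZFPM1 (FOG1) is a cofactor that binds the GATA zinc finger. KIT, the stem cell factor receptor, and HHEX, a homeobox factor of early blood and endothelium, are known as targets of this network. GATA2 itself is also expressed in prostate epithelial cells, where it is known as a cofactor of the androgen receptor.

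Promoter sequences show which of the starts listed for these genes carry GATA letters. Any further start of a gene, of RUNX1 for example, is not covered, and the listed start need not be the 5′ edge of the gene body. RefSeq promoter windows of GRCh38.p14, from 250 bases before to 50 bases after a gene start, were available for 6 of the 9 genes: TAL1 (with 2 starts), LYL1, RUNX1, ZFPM1, KIT and HHEX. LMO2, FLI1 and SPI1 had no entry. The letters GATA on either strand, overlapping matches counted, stood in 4 of these 7 windows, and in 49.7% of the 35116 promoter windows of the table. The longer form GATAA on either strand, which contains GATA, stood in 22.7% of all windows. Among the 7 it stood in 3: 1 window of TAL1 with 2 matches, that of LYL1 with 2 and that of HHEX with 1. A match is a description of the letters and not a binding site, and the peaks are placed on another build, hg19, so the windows cannot be laid over the peaks. The 4 windows below are shown because their genes differ in where the nearest peak lay: close to the rounded gene start for ZFPM1, inside the small gene body for HHEX and TAL1, and outside the gene body for LYL1. Capitals mark GATA, or TATC where the letters are on the other strand.
ZFPM1 (GRCh38.p14, chr16:88453030-88453329, plus strand): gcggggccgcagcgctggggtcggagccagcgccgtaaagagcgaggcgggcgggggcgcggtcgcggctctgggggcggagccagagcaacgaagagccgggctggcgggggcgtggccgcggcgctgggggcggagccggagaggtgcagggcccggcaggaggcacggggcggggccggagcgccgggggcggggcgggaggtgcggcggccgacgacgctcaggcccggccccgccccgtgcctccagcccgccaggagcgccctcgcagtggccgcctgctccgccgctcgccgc
HHEX (GRCh38.p14, chr10:92689705-92690004, plus strand): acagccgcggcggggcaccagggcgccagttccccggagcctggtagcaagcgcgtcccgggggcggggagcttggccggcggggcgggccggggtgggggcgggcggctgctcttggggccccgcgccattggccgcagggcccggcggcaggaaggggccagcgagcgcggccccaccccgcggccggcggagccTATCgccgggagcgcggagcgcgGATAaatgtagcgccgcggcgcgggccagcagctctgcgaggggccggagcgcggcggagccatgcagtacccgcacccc
TAL1 (GRCh38.p14, chr1:47232286-47232585, minus strand): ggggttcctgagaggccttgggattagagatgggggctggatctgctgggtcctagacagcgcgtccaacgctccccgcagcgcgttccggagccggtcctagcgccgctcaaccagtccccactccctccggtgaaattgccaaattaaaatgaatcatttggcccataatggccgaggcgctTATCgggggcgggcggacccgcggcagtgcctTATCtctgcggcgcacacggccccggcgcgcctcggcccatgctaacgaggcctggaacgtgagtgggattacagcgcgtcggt
LYL1 (GRCh38.p14, chr19:13102809-13103108, minus strand): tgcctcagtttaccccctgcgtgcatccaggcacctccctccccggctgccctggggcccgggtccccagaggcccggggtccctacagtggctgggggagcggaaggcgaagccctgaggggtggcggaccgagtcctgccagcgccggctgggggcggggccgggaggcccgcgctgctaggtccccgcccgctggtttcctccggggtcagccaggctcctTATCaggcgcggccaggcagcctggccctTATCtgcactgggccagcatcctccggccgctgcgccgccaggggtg
The ZFPM1 window, with a GC content of 83.0%, held no GATA letters. Nor did the KIT window, with a GC content of 74.3%, or the window of the other TAL1 start.

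The 9 loci together carried GATA2 peaks at about the density of the genome as a whole. The 30 peaks gave 11.9 peaks per Mb, against 12.8 per Mb over the 2870 Mb of usable chromosome length, which leaves out peak-free stretches longer than 2.5 Mb. The ratio was 0.92 (exact Poisson 95% interval 0.62 to 1.32, which covers counting of peaks only and takes peaks as independent). The megabase on either side of each window held 227 peaks in 18 Mb in all, or 12.6 per Mb. The peaks also took middling ranks by the authors' score, a value from the peak caller with no stated unit that ranks peaks within the list. Their median score was 209 (exact 95% interval from order statistics 142 to 341), beside a median of 212 for the whole list. Of the 30, 15 scored above the list median (background 50%), 3 were in the best-scoring 10% of the list (background 10%) and 2 scored under 100 (background 11.9%). Their median width was 292 bp, beside 293 bp for the list.

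All 9 windows held at least 1 peak. To give this a background, the usable genome was cut into end-to-end tiles of the width of each window, and the share of tiles with a peak was counted. That share was 84.9% for tiles of 0.22 Mb (TAL1, LYL1, HHEX), 86.5% for 0.24 Mb (LMO2, SPI1), 89.9% for 0.29 Mb (KIT, ZFPM1), 92.4% for 0.34 Mb (FLI1) and 95.7% for 0.47 Mb (RUNX1). RUNX1 held 6 peaks, LMO2 and FLI1 4 each, TAL1, LYL1, KIT, SPI1 and ZFPM1 3 each, and HHEX 1. At least as many peaks lay in 49.4% of tiles of its width for RUNX1, 35.7% for LMO2, 54.8% for FLI1, 47.5% for TAL1 and LYL1, 51.5% for SPI1, 61% for KIT and ZFPM1 and 84.9% for HHEX. Fewer peaks lay in 15.1% of tiles for HHEX, the lowest such share, and in 64.3% for LMO2, the highest, so every window stood in the broad middle of the tile counts. Per Mb the windows ran from 4.55 at HHEX (exact Poisson 95% interval 0.12 to 25.3) to 16.7 at LMO2 (4.54 to 42.7), and these intervals overlap, so the order of the 9 loci by density is not resolved.

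**Figure D1:**
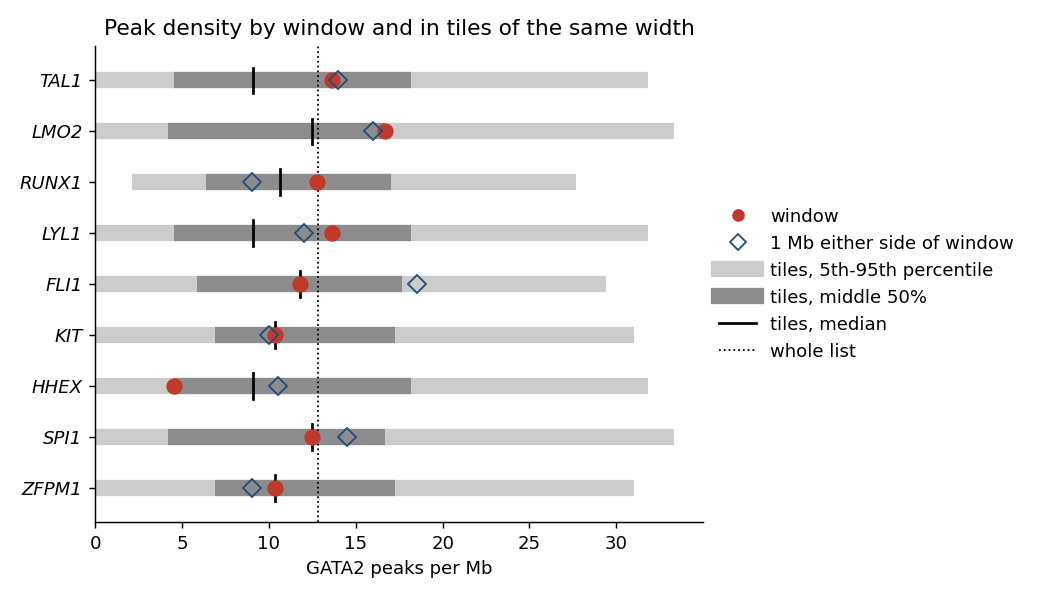
GATA2 peaks per Mb (x axis) in the window of each of the 9 genes (red circles) and in the 1 Mb on either side of it (blue diamonds), over bars for the spread of tiles of the same width and a dotted line for the whole list. The circles run from 4.55 at HHEX to 16.7 at LMO2, all within the range between the 5th and 95th percentile of the tiles.

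Inside the rounded gene bodies, GATA2 peaks were found at 4 of the 9 genes: RUNX1 with 5, ZFPM1 with 3, and TAL1 and HHEX with 1 each. LMO2, LYL1, FLI1, KIT and SPI1 had none in the gene body. Tiles of the width of the gene body held a peak in 89% of cases for RUNX1 (0.27 Mb), 73.4% for FLI1 (0.14 Mb), 60.1% for KIT and ZFPM1 (0.09 Mb), 36.1% for LMO2 and SPI1 (0.04 Mb) and 20.9% for TAL1, LYL1 and HHEX (0.02 Mb). The mean of these shares over the 9 genes was 46.4%, close to the 4 of 9 observed. The 10 peaks in gene bodies gave 13.7 per Mb and the 20 in flanks 11.1 per Mb, or 1.07 (exact Poisson 95% interval 0.51 to 1.97) and 0.87 (0.53 to 1.34) times the density of the whole list. A peak in a flank may belong to another gene, since protein-coding neighbours lie next to each of the 9 genes. Neighbours named below give a side only, from the order of gene starts in GRCh38. Whether a flank peak lies before, inside or beyond a named neighbour was not analysed. Which hg19 exon or intron a peak lies in was not analysed here.

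**Figure D2:**
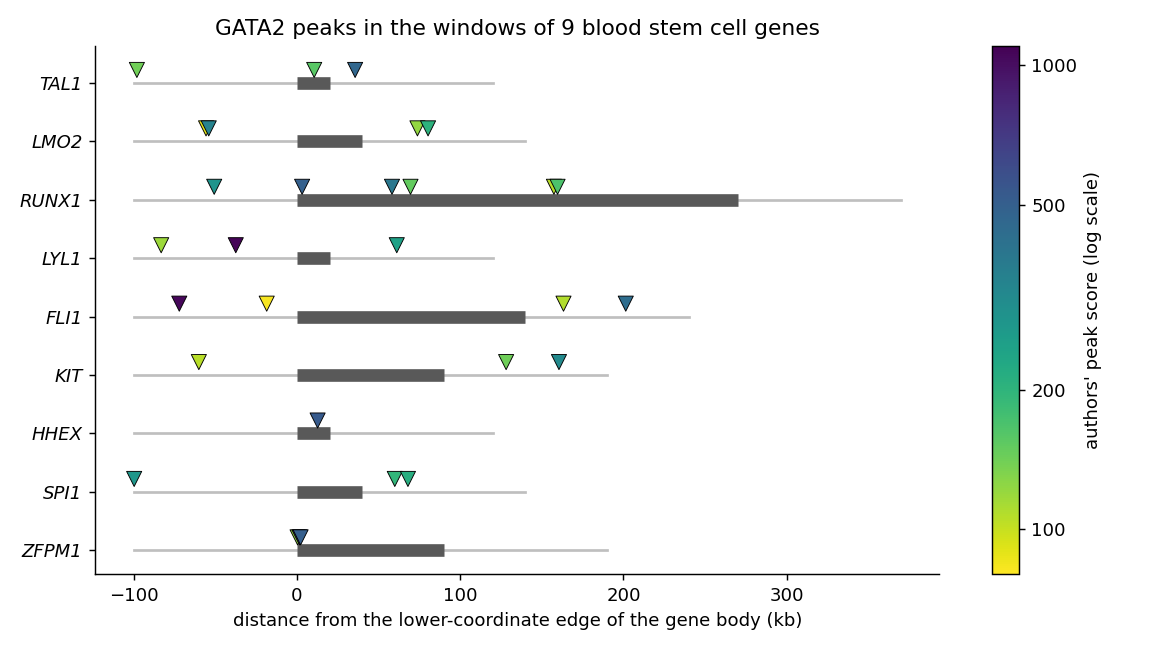
Position of each of the 30 GATA2 peaks (triangles, coloured by the authors' score on a log scale) relative to the lower-coordinate edge of the gene body in kb, with the rounded gene body as a thick bar and the 100 kb flanks as thin lines. Only RUNX1, ZFPM1, TAL1 and HHEX have a peak in the gene body, and 1 RUNX1 peak and 2 TAL1 peaks lie in flanks. All peaks of the other genes lie outside the gene body.

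TAL1, the helix-loop-helix factor at the centre of the blood stem cell complex, had peaks in its body and on both sides (window 47.58 to 47.80 Mb of chromosome 1). The best of them, at chr1:47715533-47715814, was 282 bp wide and scored 465, above 80.2% of the list. It lay 15.7 kb beyond the upper edge of the gene body. Because TAL1 is read toward lower coordinates, this is the upstream side, the side of its neighbour STIL in the GRCh38 gene order. For its score the peak was narrow, with only 2.76% of the 2213 peaks that scored within 10% of it narrower still. The peak inside the gene body (47690502 to 47690724) scored 159 and the one at lower coordinates (47581919 to 47582147), on the downstream side, scored 141, both below the list median. That last peak lay 2.03 kb inside the border of the window. The best peak of the window was matched or exceeded in 39.6% of tiles of 0.22 Mb.

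LYL1, the close relative of TAL1, had no peak in its body, and its window carried the highest-scoring peak of all 9 loci (13.10 to 13.32 Mb of chromosome 19). This peak, at chr19:13162392-13162790, was 399 bp wide and scored 1075.5, above 97.2% of the list. It lay 37.4 kb from the gene body on the downstream side. There NFIX, a nuclear factor I gene, is the next protein-coding gene by order of gene starts in GRCh38. Whether the peak lies inside NFIX was not analysed. Only 7.41% of tiles of this width had a best peak that scored as high. The other LYL1 peaks scored 245 (13261034 to 13261320, upstream side, the side of TRMT1) and 117 (13116805 to 13117013, downstream side). Chromosome 19 as a whole carried 8.64 peaks per Mb, and 28.5% of same-width tiles on it held at least 3 peaks.

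LMO2, which bridges the helix-loop-helix and GATA factors, had 4 peaks in its window (33.78 to 34.02 Mb of chromosome 11), in 2 close pairs outside the gene body. LMO2 is read toward lower coordinates. On its downstream side the best LMO2 peak (33825824 to 33826252) scored 341 and its neighbour (33824255 to 33824516) 89.7, with centres 1.65 kb apart. Upstream, toward CAPRIN1, the pair scored 205 (33960206 to 33960485) and 122 (33953759 to 33953926), with centres 6.50 kb apart. The upstream pair began 33.8 kb beyond the gene body. In each pair 1 peak scored higher than the other, and only the 341 peak was above the list median. In 54.8% of tiles of this width the best peak scored at least 341.

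RUNX1, the runt-domain factor required for blood stem cells to form, is the longest of the 9 genes and had the most peaks (36.06 to 36.53 Mb of chromosome 21). Its best peak, at chr21:36163002-36163424, was 423 bp wide and scored 499. It lay 3.21 kb inside the lower-coordinate edge of the gene body, which is the 3′ end because RUNX1 is read toward lower coordinates. Further into the gene, the peak at 36218102 to 36218402 scored 388 and the next, with its centre 11.3 kb away, scored 150. A pair with centres 2.22 kb apart scored 106 and 167. Within the rounded gene body of 270 kb, the centres of the 5 peaks lay from 3.21 to 160 kb from the 3′ edge. The 5′-most 110 kb of the rounded body and the upstream flank held none. The 110 kb were measured from the end of the last peak, so this stretch is empty by definition. Of tiles of 0.14 Mb 73.4% held a peak, and of tiles of 0.22 Mb 84.9%. Those tiles were not cut at a peak, so their shares cannot show whether the stretch is unusually empty. The remaining peak, 50.6 kb downstream of the gene body toward CLIC6, scored 284. By density, RUNX1 had 12.8 peaks per Mb, equal at this precision to the whole list and below the 16.2 per Mb of chromosome 21. Its surroundings, 1 Mb either side, held 9.0 per Mb. In 59.4% of tiles of this width the best peak scored at least 499.

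FLI1 and SPI1, both ETS-family factors of blood cells on chromosome 11, had peaks in their flanks and none in their bodies. The FLI1 window (128.45 to 128.79 Mb) held the second-highest score of the 9 loci, 1051, at chr11:128477786-128478206. This peak lay 72.0 kb below the gene body, on the side of ETS1, another ETS-family gene, which is the upstream side since FLI1 is read toward higher coordinates. A best peak as high was found in 12.1% of tiles of 0.34 Mb. The FLI1 peak nearest to the gene body, 18.5 kb upstream (128531463 to 128531607), was only 145 bp wide, and its score of 81.9 was the lowest of the 30. On the downstream side, the side of KCNJ1, peaks scored 108 (128713174 to 128713395) and 434 (128751248 to 128751578). The 2 high FLI1 peaks were thus the ones farther from the gene. Around the FLI1 window the density was 18.5 per Mb, the highest of the 9 surroundings.

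SPI1, the PU.1 gene, had the most even scores, 275, 197 and 213 (47.27 to 47.51 Mb). A pair with centres 8.06 kb apart, at 47429847 to 47430082 and 47437895 to 47438161, began 20.0 kb above the gene body, on the side of SLC39A13. SPI1 is read toward lower coordinates, so this is its upstream side. The best SPI1 peak (47270220 to 47270516) was the member closest to a window border, 0.37 kb inside it and 99.6 kb from the gene body. On the other border of that window, the nearest peak outside lay 7.94 kb away, the shortest such distance of the 9 windows. The best peak scored at least 275 in 62% of tiles of this width.

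ZFPM1, the cofactor that binds GATA zinc fingers, had the tightest group of peaks among the 9 loci (88.42 to 88.71 Mb of chromosome 16). All 3 lay within the first few kb of the rounded gene body, which is its 5′ end because ZFPM1 is read toward higher coordinates. Since gene bodies were rounded to 10 kb, the distance to the transcription start itself cannot be given. The best peak, at chr16:88521330-88521909, was 580 bp wide and scored 697, above 90.3% of the list. The next, at chr16:88521928-88522638, followed after a gap of 18 bp, was 711 bp wide and scored 500. The first (88520216 to 88520652) scored 123 at a width of 437 bp. Their summed width was 1728 bp. All 3 were wide for their score: 98.9% of the list's peaks scoring within 10% of the first were narrower, 88.8% for the best and 97.5% for the last. Joined across gaps under 500 bp, the best and the last form 1 region of 1309 bp. No other peak was called in the window, so the ZFPM1 count of 3 came from 1 short stretch of chromatin. In 28.5% of tiles of this width the best peak scored at least 697.

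**Figure D3:**
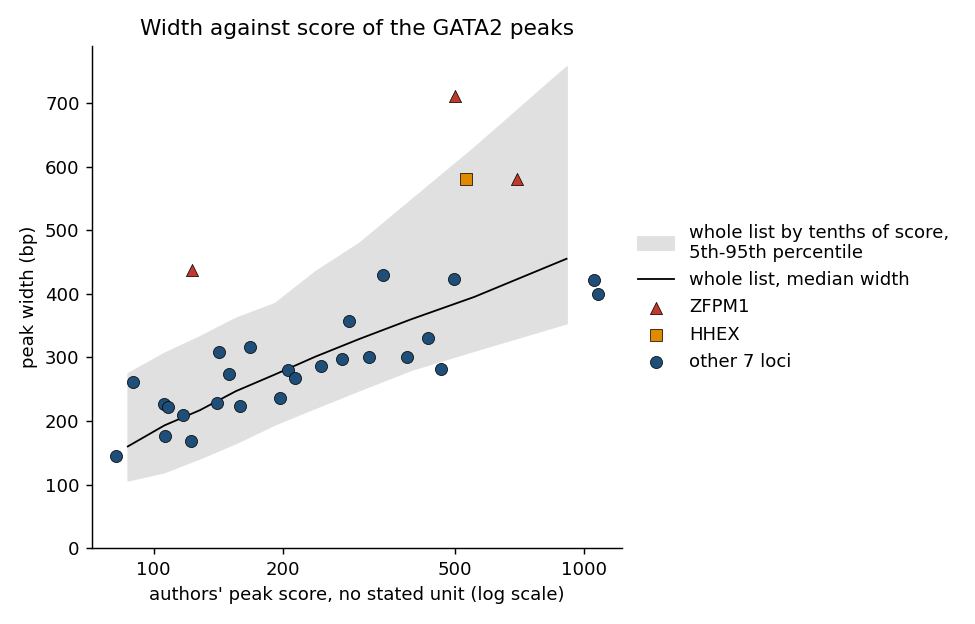
Width in bp (y axis) against the authors' score on a log scale (x axis) for the 30 peaks, over the median and the 5th to 95th percentile of the whole list at each score (10 classes of equal size). The 3 ZFPM1 peaks, 437, 580 and 711 bp wide, and the HHEX peak, 581 bp wide, lie well above the median line.

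HHEX, the homeobox gene, had 1 peak, inside its small rounded gene body (94.34 to 94.56 Mb of chromosome 10). It lay at chr10:94452415-94452995 with a score of 530, above 83.8% of the list. Its width of 581 bp exceeded that of 92.3% of the list's peaks of similar score. The nearest other peak was 133 kb away, beside a median distance of 19.1 kb in the list. The upstream KIT peak was more isolated still, with its nearest peak 153 kb away. In 34.1% of tiles of this width the best peak scored at least as high.

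KIT, the receptor for stem cell factor and a known GATA2 target in blood and mast cells, had no peak in its gene body (55.42 to 55.71 Mb of chromosome 4). Its best peak (55680356 to 55680656) scored 316 and lay 70.5 kb beyond the 3′ end, toward KDR, the gene of a vascular growth factor receptor. A second downstream KIT peak (55647994 to 55648301) scored 142. The single upstream peak (55459882 to 55460058), toward PDGFRA, scored 106 and lay 60.0 kb from the gene body. From this upstream peak to the next the distance between centres was 188 kb, and KIT lies within it. That was the longest between neighbouring peaks inside any of the windows. FLI1, SPI1, LMO2 and LYL1, which also had no peak in the gene body, lie within distances of this kind of 182, 160, 128 and 98.6 kb. A gene with peaks on both sides and none in its body must lie within such a distance. No background for these lengths was computed. HHEX, with 1 peak, has none to compare. In 63.6% of tiles of this width the best peak scored at least 316.

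**Figure D4:**
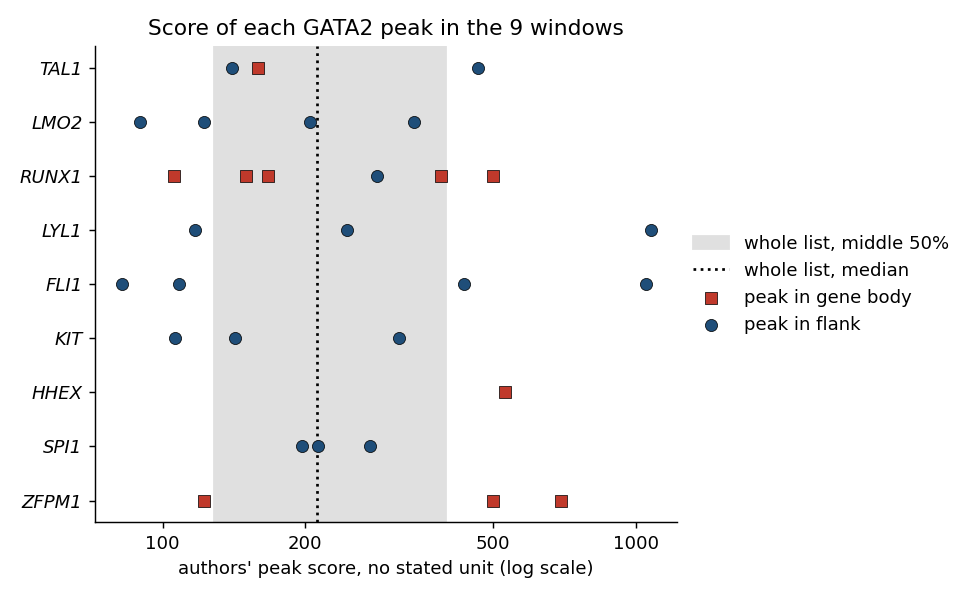
Authors' score on a log scale (x axis) of each of the 30 GATA2 peaks by gene, with peaks in gene bodies as red squares and peaks in flanks as blue circles, over the middle 50% and the median of the whole list. The 2 scores above 1000 are flank peaks of LYL1 and FLI1, and the highest score within a gene body is 697 at ZFPM1.

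Across the 9 loci the high scores lay in different places. The 2 peaks that scored 1000 or more (6.67% of the 30, Wilson 95% interval 1.85% to 21.3%, background 3.69%) were both in flanks. They lay in the windows of LYL1 and FLI1, on the sides of NFIX and ETS1, and their position relative to those neighbours was not analysed. Flanks held 20 of the 30 peaks, however. The share in the best-scoring 10% of the list was 10% both in flanks (2 of 20) and in gene bodies (1 of 10). In the gene bodies the median score was 278 (exact 95% interval 123 to 530), and in the flanks 209 (122 to 316), and these intervals overlap. In width, 14 of the 30 peaks exceeded the median of the list's peaks scoring within 10% of them (background 49.9%), a share near that of the whole list. They were 8 of the 10 gene-body peaks and 6 of the 20 flank peaks. This split was noticed after the values were seen, and since 3 of the 8 are the adjoining ZFPM1 peaks it was not tested. Of the 30 peaks, 11 had another peak centre no more than 10 kb away (36.7%, Wilson 95% interval 21.9% to 54.5%), beside 33.2% of the whole list. These 11 belonged to 4 loci, LMO2, RUNX1, SPI1 and ZFPM1. They were close neighbours of each other, while the interval takes peaks as independent, so it is too narrow. For density, median score and the share of close neighbours, the intervals of the 9 loci together included the value of the whole list. With 30 peaks these intervals are wide, and they still allow a density of 0.62 to 1.32 times that of the list.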

How the data were processed

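GATA2 ChIP-seq of 2 LNCaP samples was represented by 1 deposited peak list. Per the submitters' processing notes, Bowtie was the aligner and hg19 the build. The peak names in the file carry the name of the caller MACS. The sources used here do not give tool versions, any control library, the handling of duplicate reads or any pooling of replicates. The deposited score column holds the authors' value per peak, from 80.01 to 3100, with no stated unit. It served only to rank and describe peaks. Starts were converted to 1-based positions.

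Peaks were assigned by midpoint to the 9 windows, and gene bodies were taken as the windows less 0.1 Mb on either side. Members and lists were chosen with earlier results of these data known, although the rule for the windows uses no peak value. All 9 genes are named. Peaks named by position include the best of each window, all peaks of windows with 4 or fewer, and the 10 highest-scoring. Density used the length from first to last peak of each chromosome less peak-free stretches over 2.5 Mb. Tiles touching such stretches were dropped. Intervals are exact Poisson, Wilson or from order statistics, and cover counting only. Promoters, gene order and most gene directions came from RefSeq (GRCh38.p14). The directions of LMO2, FLI1 and SPI1 are textbook knowledge. The counting code was tested on simulated data. Computation was in Python 3.11.15 with scipy 1.17.1, pandas 2.3.3 and numpy 2.4.6.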

Additional observations from a re-analysis of the deposited data

How the results depend on the processing

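The density relative to the whole list, 0.92, stayed within its interval under every alternative run, from 0.89 without the LMO2 window to 1.12 with flanks of 0.2 Mb. It was again 0.92 with only the better-scoring 50% of peaks and with only the best-scoring 10%. The count of 30 peaks became 15 and 3 in those subsets, 10 with gene bodies alone and 62 with flanks of 0.2 Mb. The median score became 434 and 1051 in the same subsets, by construction. Windows with a peak numbered 3 for the best-scoring 10% and 4 with gene bodies alone. The other 58 of 66 alternative values, all 36 with a window left out among them, stayed within the interval or within 1.5 times the count reported. Part of this was fixed in advance by the counts. With a window left out, the windows with a peak had to number 8. The peaks had to number 24 to 29, since no window held more than 6. Against tiles of the same chromosome only, the share with at least as many peaks fell to 28.5% for LYL1, 45.9% for ZFPM1 and 58.9% for KIT, in place of 47.5%, 61.0% and 61.0%. It rose to 58.3% for TAL1, 56.2% for RUNX1, 53.8% for SPI1 and 86.5% for HHEX, in place of 47.5%, 49.4%, 51.5% and 84.9%. For LMO2 (35.9%) and FLI1 (54.8%) it stayed within the Wilson interval. No paired analysis was possible because both samples belong to 1 group and share 1 list, from which no replicate could be left out. Depth is unknown, so LMO2, LYL1, FLI1, KIT and SPI1 bodies are not shown to be unbound.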
